A study of Mus musculus with 6 samples.

Results

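The mitosis and cytokinesis genes described here are 40 listed mouse genes whose products drive entry into mitosis, spindle assembly, chromosome attachment and segregation, and the final division of the cell. They were chosen by name for these roles, with earlier results of these data known. All 40 were found among the 23224 genes of the table. Their levels were measured by bulk RNA sequencing of dendritic cells (DC) sorted from subcutaneous tumors of MC57-SIY cells, a mouse fibrosarcoma line that carries the model antigen SIY. Sorted cells came from pooled tumors collected on day 7, and each kind of sample was obtained in 2 independent experiments. The 3 groups, of 2 libraries each, were ISG+ DC from Rag2-/- C57BL/6 hosts (replicates 2 and 3), ISG+ DC from WT C57BL/6 hosts (replicates 1 and 2) and CD103+ DC1 from Rag2-/- C57BL/6 hosts (replicates 2 and 3). All hosts carried the same tumor line, while host age and sex and the sort gates were not given in the sources used here. Loss of Rag2, an enzyme that rearranges antigen receptor genes, leaves a mouse without mature lymphocytes of the T and B lineages, while DC remain. CD103+ DC1 are conventional DC known for cross-presentation, and ISG+ DC carry in the labels a name that usually stands for interferon-stimulated gene.

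In a dividing cell, cyclin A and cyclin B with the kinase Cdk1 start mitosis, Polo and Aurora kinases build the spindle, and kinetochores attach the chromosomes to it. The spindle checkpoint holds the cell until every chromosome is attached, after which the anaphase-promoting complex destroys cyclin B and the separase inhibitor, and kinesins with actin regulators pinch the cell apart. Most of these genes are transcribed late in the cycle under the MuvB complex with B-Myb and FoxM1, which binds the CHR element, together with NF-Y on nearby CCAAT boxes, so their RNA marks cycling cells. Conventional DC arise from dividing precursors, and a part of the DC in tissues still cycles.

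The promoters of 34 of the 40 genes were found by symbol in the RefSeq table for GRCm38.p6, which gives 250 bases before to 50 bases after each annotated start. In these windows both strands were searched for the CHR element, written TTTGAA or TTCGAA, and for CCAAT. A CHR element was present for 28 of the 34 genes (82.4%), against 19.2% of all 32851 windows of that length, and CCAAT for 26 genes (76.5%), against 37.4%. Both motifs were present for 23 genes (67.6%), against 7.52% of all windows, and no match of one kind overlapped a match of the other. In 25 genes a CHR element lay within 40 bases of the start, while Birc5, Ccnb1, Cenpe, Ncaph, Nek2 and Nuf2 had none in the window. The share of all windows with a CHR element so close was not computed. For the 2 genes with 2 windows, a match in either window counted. A match is only a run of letters and was not tested as a binding site. Windows are shown for 2 proliferation markers that were called in these data (Mki67 and Top2a), for a mitotic cyclin and for the activator of the anaphase-promoting complex, to show how the motif letters are spaced. Each runs from 180 bases before to 20 bases after the start, 5′ to 3′ on the strand of the gene, with capitals marking CHR elements and CCAAT boxes on either strand (TTCAAA and ATTGG are the opposite-strand forms). The positions on GRCm38.p6, all on the minus strand, are chr7:135716360-135716559 for Mki67, chr11:99024170-99024369 for Top2a, chr9:70421535-70421734 for Ccnb2 and chr4:118437324-118437523 for Cdc20.
Mki67: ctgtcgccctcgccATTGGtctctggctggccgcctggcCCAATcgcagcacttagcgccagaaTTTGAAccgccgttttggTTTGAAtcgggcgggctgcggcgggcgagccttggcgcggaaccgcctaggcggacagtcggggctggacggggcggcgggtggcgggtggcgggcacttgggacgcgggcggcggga
Top2a: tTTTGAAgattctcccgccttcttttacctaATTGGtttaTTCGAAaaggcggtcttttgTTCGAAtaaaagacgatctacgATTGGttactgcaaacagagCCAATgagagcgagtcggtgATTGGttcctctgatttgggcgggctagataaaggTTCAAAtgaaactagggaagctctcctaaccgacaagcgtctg
Ccnb2: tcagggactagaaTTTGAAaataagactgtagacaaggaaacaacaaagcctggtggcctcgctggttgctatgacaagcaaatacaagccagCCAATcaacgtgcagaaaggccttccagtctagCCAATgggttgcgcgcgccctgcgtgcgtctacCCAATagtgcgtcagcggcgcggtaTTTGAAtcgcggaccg
Cdc20: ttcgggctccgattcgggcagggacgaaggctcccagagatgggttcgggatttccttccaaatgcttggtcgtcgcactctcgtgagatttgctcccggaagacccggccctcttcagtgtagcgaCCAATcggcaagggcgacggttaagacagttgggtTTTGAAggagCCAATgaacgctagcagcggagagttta

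**Figure D1:**
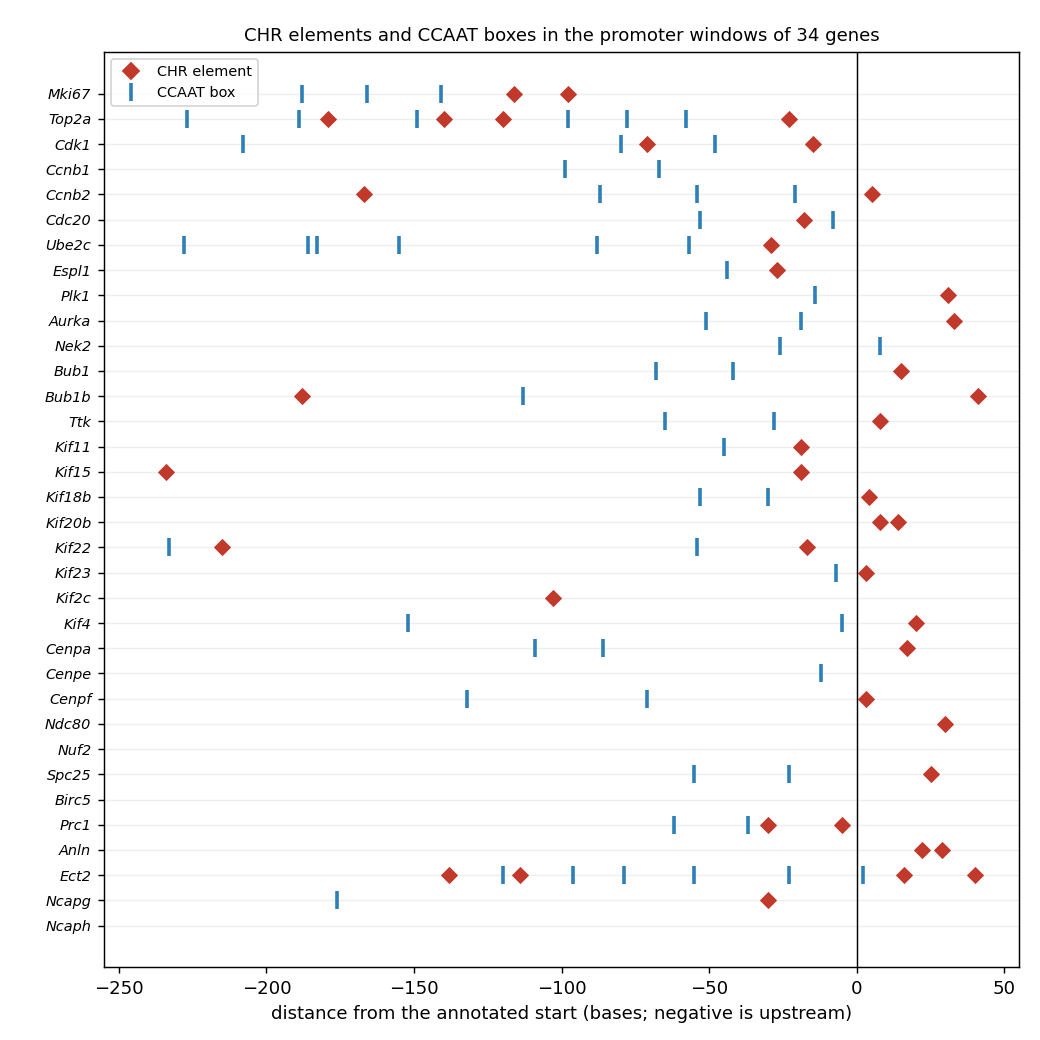
Positions of CHR elements (red diamonds) and CCAAT boxes (blue bars) in the promoter windows of 34 genes, in bases from the annotated start, with negative values upstream. CHR elements lie within 40 bases of the start in 25 genes, a share not computed for all windows, and CCAAT boxes are present in 26.

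Levels are given as CPM, the share of a library's counts scaled by TMM factors, which serve to compare a gene between libraries but not genes with each other, since they are not corrected for length. Library totals lay between 6023510 and 15368616 estimated counts. CD103+ DC1 replicate 3 had the lowest total and stood apart from the rest, with a Spearman correlation over genes of 0.768 to 0.882 with the other 5 libraries. For CD103+ DC1 replicate 2 that correlation was 0.90 with Rag2-/- ISG+ DC replicate 2 and 0.882 with the other CD103+ DC1 library. Rag2 itself had 40 and 2 estimated counts in Rag2-/- ISG+ DC, no count in either WT ISG+ DC library and 39 and 11 counts in CD103+ DC1. Gene totals do not separate the deleted part of the gene, so this did not check the labels, and the hosts are named here as labelled.

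Marker genes were compared with the sorted populations. Of 7 CD103+ DC1 markers, 6 were lower in Rag2-/- ISG+ DC than in CD103+ DC1 by the edgeR test described below. The share of all genes tested was 0.862%. The summed level of the list was 192 and 255 CPM in Rag2-/- ISG+ DC and 264 and 281 CPM in WT ISG+ DC. In CD103+ DC1 it was 3188 and 2157 CPM. Itgae, which encodes CD103, was at 0.692 and 7.00 CPM in Rag2-/- ISG+ DC, 1.16 and 0.299 CPM in WT ISG+ DC and 324 and 423 CPM in CD103+ DC1. CD11b+ DC markers had the opposite pattern, with sums of 2394 and 2839 CPM in Rag2-/- ISG+ DC, 3055 and 3170 CPM in WT ISG+ DC and 146 and 122 CPM in CD103+ DC1. Macrophage and monocyte markers summed to 3026 and 4655 CPM in Rag2-/- ISG+ DC, 9444 and 9451 CPM in WT ISG+ DC and 766 and 891 CPM in CD103+ DC1. Of these 13 markers, 10 were higher in Rag2-/- ISG+ DC than in CD103+ DC1, against 2.83% of all genes tested. Between hosts, 1 (Apoe) was lower in Rag2-/- than in WT ISG+ DC, against 0.287%. In WT ISG+ DC, 12 were higher than in CD103+ DC1, against 5.52%. The median host log2 fold change of the 13 was -1.39. Of them, 10 were lower in both Rag2-/- ISG+ DC libraries than in both WT ISG+ DC libraries, against 21.4% of all genes tested. An unadjusted p under 0.05 was reached by 9, against 9.88% of all genes in either direction. The count of 1 became 0 without Rag2-/- ISG+ DC replicate 2 and 9 without either CD103+ DC1 replicate. The mitotic sums described below had the reverse order over the 3 groups, and the part of these markers in the differences was not tested. The B cell marker Ms4a1, the neutrophil markers S100a8, Ngp, Camp and Elane and the NK cell marker Klrb1c were at 0 in all 6 libraries, but other members of these lists had counts. The B cell list, mostly through Ebf1 and Cd79b, summed to 4.72 and 0.292 CPM in Rag2-/- ISG+ DC, 12.7 and 0 CPM in WT ISG+ DC and 4.92 and 0.171 CPM in CD103+ DC1. The NK cell list, led by Eomes, and the neutrophil list, led by S100a9, likewise had their highest sums in WT ISG+ DC replicate 1 (5.35 and 4.29 CPM). The T cell list summed to at most 36.5 CPM in any library.

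Summed over the 40 genes, the level was lowest in WT ISG+ DC, intermediate in Rag2-/- ISG+ DC and highest in CD103+ DC1. Summed CPM was 1993 and 1889.9 in the Rag2-/- ISG+ DC libraries, 737 and 544 in WT ISG+ DC and 4341 and 6343 in CD103+ DC1. The mean sum in Rag2-/- ISG+ DC was 0.363 times that in CD103+ DC1 and 3.03 times that in WT ISG+ DC. Mki67 made up part of these sums, and without it they were 1462 and 1398 in the Rag2-/- ISG+ DC libraries, 539 and 391 in WT ISG+ DC and 2967 and 4052 in CD103+ DC1. No library of a group overlapped with another group's in either version. Of the 40 genes, 28 had both CD103+ DC1 libraries above both Rag2-/- ISG+ DC libraries and these above both WT ISG+ DC libraries, an order found for 5.0% of all genes tested. In bulk RNA, fewer cycling cells and less mitotic RNA per cell cannot be told apart.

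**Figure D2:**
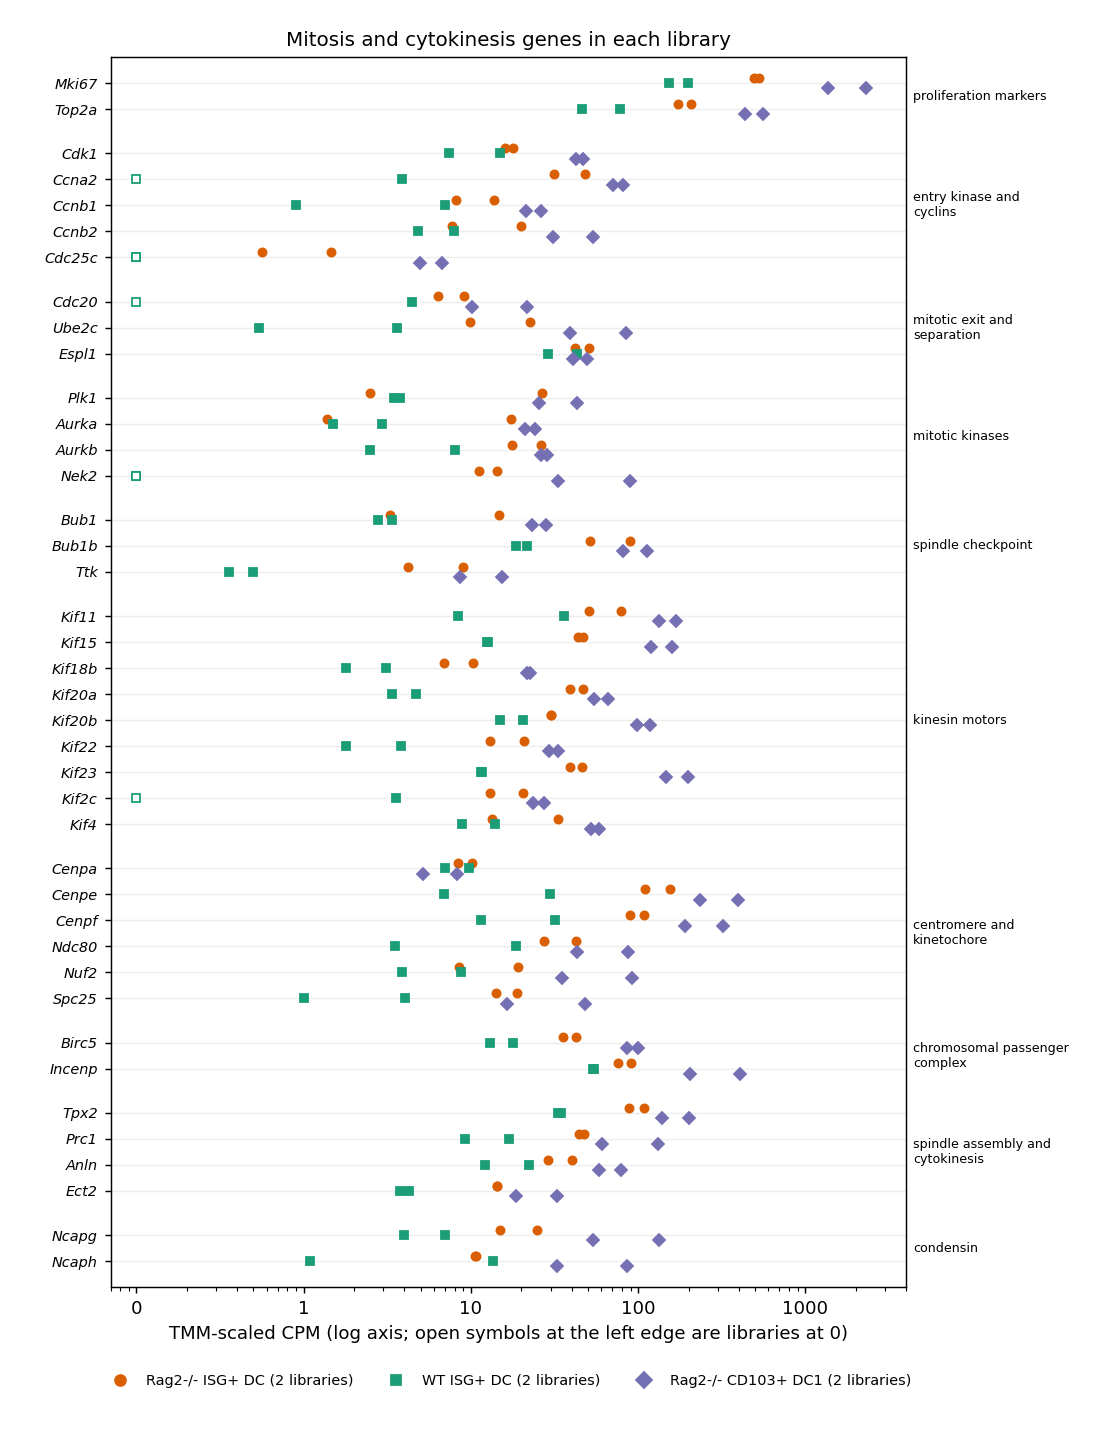
TMM-scaled CPM (log axis) of the 40 genes in each of the 6 libraries, grouped by role, with orange circles for Rag2-/- ISG+ DC, green squares for WT ISG+ DC and purple diamonds for Rag2-/- CD103+ DC1. Open symbols at the left edge are libraries at 0, and 28 of the 40 genes have the 3 groups in the same order without overlap.

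Within hosts labelled Rag2-/-, 6 of the 40 genes were lower in ISG+ DC than in CD103+ DC1 and none was higher (edgeR quasi-likelihood test, Benjamini-Hochberg adjusted p under 0.05). Of all 13223 genes tested, 0.862% were lower and 2.83% higher (3.69% in either direction). The 6 were the proliferation markers Mki67 and Top2a, the chromosomal passenger scaffold Incenp and the kinesins Kif15, Kif20b and Kif23. The median log2 fold change was -1.25 over the 40 genes and -0.02 over all genes tested, and 38 of the 40 had a negative fold change. The libraries of the groups did not overlap for 34 genes in the lower direction, against 22.0% of all genes, and for 1 (Cenpa) in the higher, against 23.9%, and 18 genes had an unadjusted p under 0.05, against 14.9% of all genes in either direction. Without Rag2-/- ISG+ DC replicate 2, and likewise without replicate 3, Mki67 was the single gene of the 40 that passed. Without CD103+ DC1 replicate 2 there were 15, and without WT ISG+ DC replicates 1 and 2 there were 10 and 11.

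Between hosts, ISG+ DC labelled Rag2-/- had higher levels of 4 of the 40 genes than ISG+ DC labelled WT, against 0.265% of all genes tested, and a lower level of none, against 0.287% (0.552% in either direction). These were Mki67, the centrosome kinase Nek2 and the cytokinesis kinesins Kif20a and Kif23. The median log2 fold change was 1.80 over the 40 genes and 0.03 over all genes, and all 40 fold changes were positive. Those of Aurka, Cenpa, Ncaph and Plk1 could turn negative with a library left out. For 31 genes the libraries of both hosts did not overlap in that direction, against 23.1% of all genes, and for 0 in the lower, against 21.4%, and 24 genes had an unadjusted p under 0.05, against 9.88%. The count of 4 was 2 without Rag2-/- ISG+ DC replicate 2 and 10 without WT ISG+ DC replicate 1, and it was 15 and 14 without CD103+ DC1 replicates 2 and 3. Beside it, summed fibroblast and fibrosarcoma matrix markers were 1305 and 746 CPM in Rag2-/- ISG+ DC and 575 and 69.1 CPM in WT ISG+ DC, with none of 13 past the test (5 without WT ISG+ DC replicate 1 or either CD103+ DC1 replicate) and a median of 1.76. Their part in the result was not tested. Macrophage and monocyte markers, with a median of -1.39, had the opposite direction, and their part was not tested.

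WT ISG+ DC were lower than Rag2-/- CD103+ DC1 for 24 of the 40 genes, against 3.62% of all genes tested, and higher for none, against 5.52% (9.14% in either direction). Population and host differ together in this comparison, so their effects cannot be told apart. Fibroblast and fibrosarcoma matrix markers summed to 575 and 69.1 CPM in WT ISG+ DC and 1413 and 623 CPM in CD103+ DC1. Their median was -2.18, with Col5a1, Col6a1 and Pdgfra of the 13 lower (8 without WT ISG+ DC replicate 1, 1 without replicate 2), and their part in the result was not tested. Over the mitotic genes, the median log2 fold change was -3.03, and over all genes it was -0.03. Libraries did not overlap for 38 genes in the lower direction, against 25.8% of all genes, and the exceptions were Cenpa and Espl1. An unadjusted p under 0.05 was reached by 37 genes, against 21.9% of all genes in either direction. The count ran from 19, without WT ISG+ DC replicate 2, to 29, without CD103+ DC1 replicate 2. Calls lost without WT ISG+ DC replicate 2 were those of Anln, Ccnb2, Kif22, Kif4, Nuf2 and Spc25. The 3 comparisons share groups pairwise, so they are not independent of each other.

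**Figure D3:**
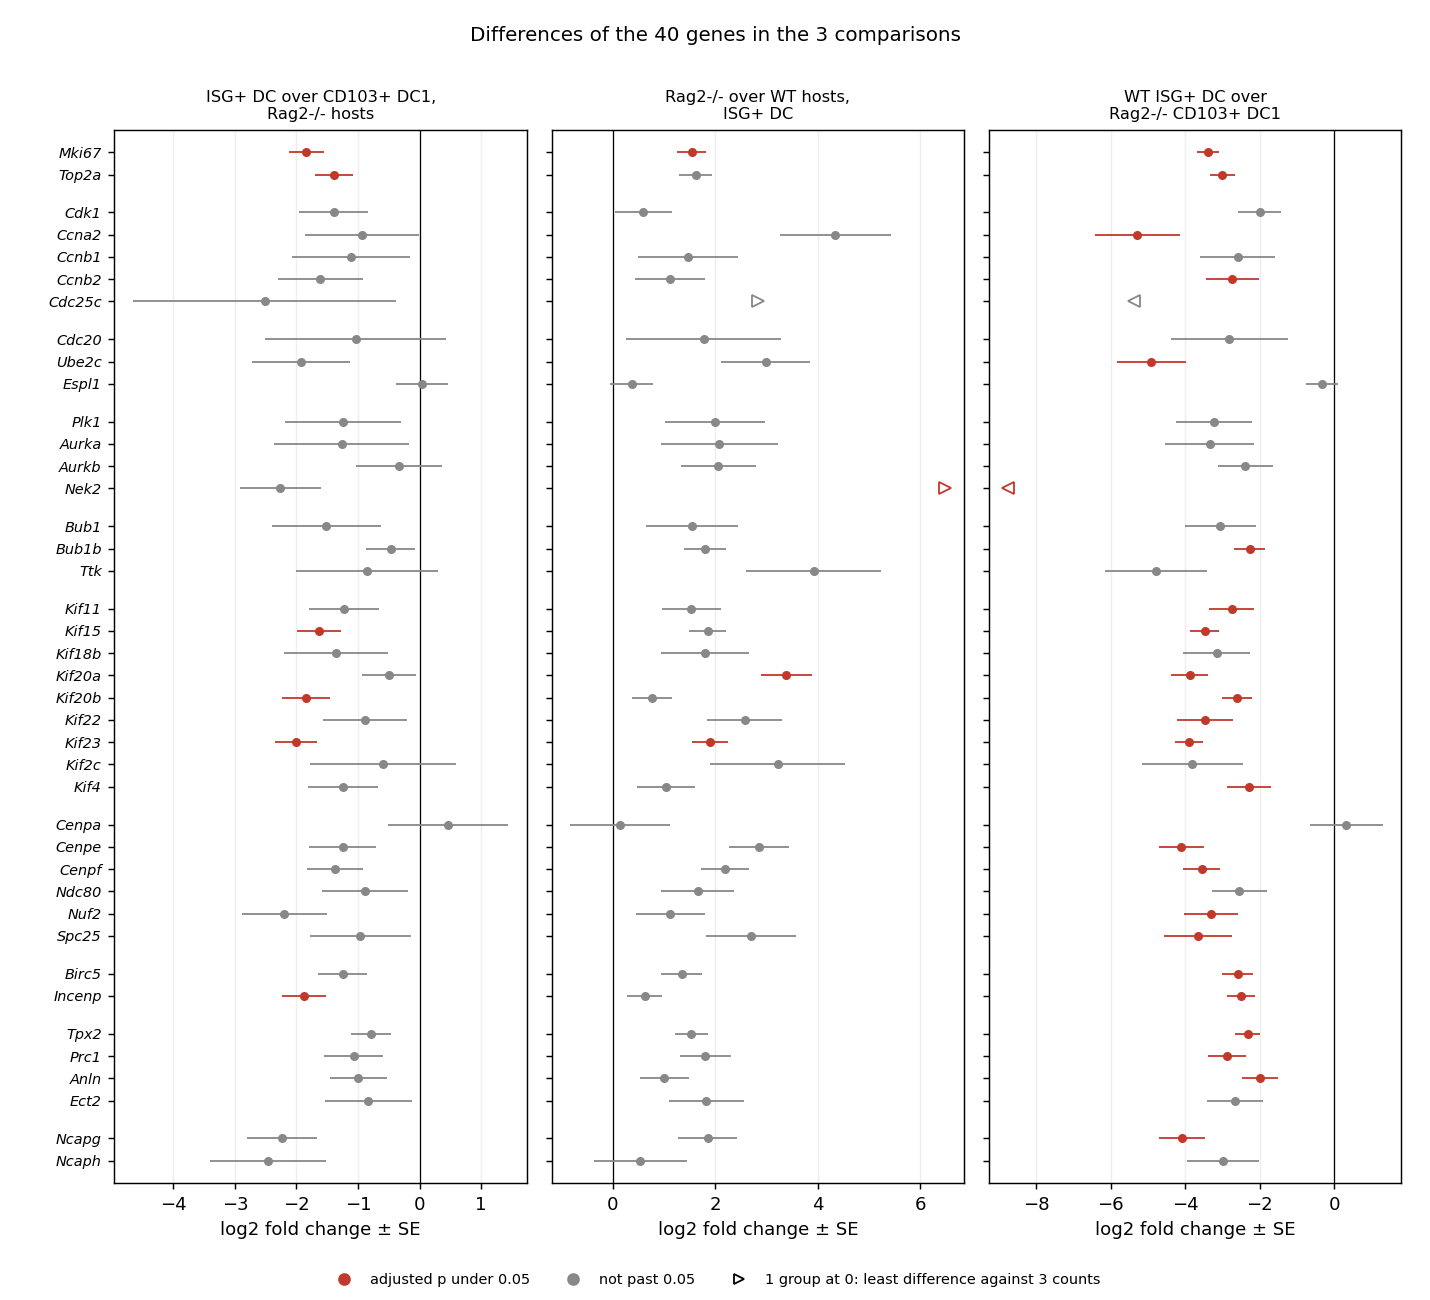
Log2 fold change ± SE of the 40 genes in the 3 comparisons, with red for an adjusted p under 0.05 and grey for the rest. Open triangles stand for genes at 0 in both WT ISG+ DC libraries (Nek2 and Cdc25c) and mark the least difference against a limit of 3 counts over the group.

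Both proliferation markers followed the order of the groups. Mki67 encodes Ki-67, the protein that coats mitotic chromosomes. It had 531 and 492 CPM in Rag2-/- ISG+ DC, 198 and 153 CPM in WT ISG+ DC and 1374 and 2291 CPM in CD103+ DC1. The 3 groups did not overlap. Mki67 was 3.58-fold lower in Rag2-/- ISG+ DC than in CD103+ DC1 (log2 fold change -1.84 ± 0.29 SE, edgeR adjusted p = 0.00511) and kept its call without any single library. It was 2.92-fold higher in Rag2-/- than in WT ISG+ DC (1.54 ± 0.28 SE, edgeR adjusted p = 0.0467), a call lost without Rag2-/- ISG+ DC replicate 2, without replicate 3 or without WT ISG+ DC replicate 2. WT ISG+ DC were 10.4-fold lower than CD103+ DC1 (-3.39 ± 0.30 SE, edgeR adjusted p = 0.000162). Top2a, the topoisomerase that untangles replicated DNA, had 208 and 172 CPM in Rag2-/- ISG+ DC, 77.7 and 46.3 CPM in WT ISG+ DC and 558 and 436 CPM in CD103+ DC1, again without overlap. It was 2.62-fold lower in Rag2-/- ISG+ DC than in CD103+ DC1 (-1.39 ± 0.31 SE, edgeR adjusted p = 0.0345), a call lost without either Rag2-/- ISG+ DC replicate. Against WT ISG+ DC, Top2a had a log2 fold change of 1.62 ± 0.31 (SE) in Rag2-/- ISG+ DC and did not pass (edgeR adjusted p = 0.0516), and WT ISG+ DC were 8.01-fold lower than CD103+ DC1 (-3.00 ± 0.33 SE, edgeR adjusted p = 0.000401).

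The entry kinase and its cyclins were low in WT ISG+ DC, and most of their differences did not pass. Cdk1, the kinase that starts mitosis, had 15.99 and 17.8 CPM in Rag2-/- ISG+ DC, 7.42 and 14.9 CPM in WT ISG+ DC and 46.5 and 42.5 CPM in CD103+ DC1. Its CD103+ DC1 libraries lay above all ISG+ DC libraries, but it did not pass in any comparison, with log2 fold changes of -1.40 ± 0.57 (edgeR adjusted p = 0.267) for Rag2-/- ISG+ DC over CD103+ DC1, 0.60 ± 0.56 (0.845) for Rag2-/- over WT ISG+ DC and -2.00 ± 0.58 (0.0592) for WT ISG+ DC over CD103+ DC1. Ccnb1, which encodes cyclin B1, had 13.7 and 8.17 CPM in Rag2-/- ISG+ DC, 6.97 and 0.898 CPM in WT ISG+ DC and 26.3 and 21.2 CPM in CD103+ DC1. No group overlapped with another, and no comparison passed, with log2 fold changes of -1.12 ± 0.96, 1.47 ± 0.97 and -2.59 ± 1.01 in the same order (edgeR adjusted p = 0.670, 0.706 and 0.162). Ccna2, which encodes cyclin A2 of S phase and early mitosis, had 31.3 and 48.1 CPM in Rag2-/- ISG+ DC, 3.86 and 0 CPM in WT ISG+ DC and 71.1 and 80.8 CPM in CD103+ DC1. WT ISG+ DC were 38.8-fold lower than CD103+ DC1 in Ccna2 (edgeR adjusted p = 0.0153). This size rests on the WT ISG+ DC library with counts: the log2 fold change was -5.28, against -4.31 without replicate 2, and without replicate 1 the remaining library was at 0 and at least 254-fold lower. Ccnb2, for cyclin B2, was 6.66-fold lower in WT ISG+ DC than in CD103+ DC1 (edgeR adjusted p = 0.0400), a call lost without either WT ISG+ DC replicate or CD103+ DC1 replicate 3. Cdc25c, the phosphatase that activates Cdk1, was rare everywhere, with 0.567 and 1.46 CPM in Rag2-/- ISG+ DC, 0 and 0 CPM in WT ISG+ DC and 6.72 and 4.97 CPM in CD103+ DC1, and did not pass.

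Among the mitotic kinases, Nek2 was called between hosts. Nek2, which splits the centrosomes, had 14.3 and 11.2 CPM in Rag2-/- ISG+ DC, 0 and 0 CPM in WT ISG+ DC and 33.2 and 89.2 CPM in CD103+ DC1. Measured against a limit of 3 counts over the WT group, its mean was at least 89.9-fold higher in Rag2-/- than in WT ISG+ DC (edgeR adjusted p = 0.0160). The WT ISG+ DC were at least 433-fold lower than CD103+ DC1 (edgeR adjusted p = 0.000406). Both calls held without any single library, but the limits did not stay the same. For Rag2-/- over WT ISG+ DC the limit was 42.5-fold without WT ISG+ DC replicate 1 and 47.5-fold without replicate 2. For WT ISG+ DC against CD103+ DC1 it was 204-fold and 228-fold without these libraries and 235-fold without CD103+ DC1 replicate 3. For Rag2-/- ISG+ DC over CD103+ DC1 it was at -2.26 ± 0.66 and did not pass (edgeR adjusted p = 0.117). Aurkb, the kinase of the chromosomal passenger complex, had 17.6 and 26.1 CPM in Rag2-/- ISG+ DC, 2.50 and 7.98 CPM in WT ISG+ DC and 26.3 and 28.6 CPM in CD103+ DC1. Its Rag2-/- ISG+ DC libraries lay closer to CD103+ DC1 than to WT ISG+ DC, with log2 fold changes of -0.33 ± 0.70 over CD103+ DC1 (edgeR adjusted p = 0.899) and 2.06 ± 0.73 over WT ISG+ DC (edgeR adjusted p = 0.333), neither of which passed. For WT ISG+ DC over CD103+ DC1 it was -2.39 ± 0.74 (edgeR adjusted p = 0.0789). Plk1, the Polo kinase of spindle assembly, had 26.6 and 2.48 CPM in Rag2-/- ISG+ DC, 3.49 and 3.79 CPM in WT ISG+ DC and 43.1 and 25.7 CPM in CD103+ DC1. The Rag2-/- ISG+ DC libraries spanned those of WT ISG+ DC and reached into those of CD103+ DC1, and no comparison passed (-1.24 ± 0.94, 2.0 ± 0.97 and -3.24 ± 1.02, edgeR adjusted p = 0.621, 0.568 and 0.0818). Without Rag2-/- ISG+ DC replicate 2 the host fold change of Plk1 was -0.55. Aurka, the centrosome Aurora kinase, was also split between the Rag2-/- ISG+ DC replicates, at 17.4 and 1.39 CPM, which spanned WT ISG+ DC (2.95 and 1.497 CPM). Its CD103+ DC1 libraries, at 21.0 and 24.3 CPM, lay above all ISG+ DC libraries.

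Spindle checkpoint genes gave 1 call, Bub1b. Bub1b, which encodes the checkpoint protein BubR1, had 51.9 and 89.0 CPM in Rag2-/- ISG+ DC, 18.7 and 21.6 CPM in WT ISG+ DC and 81.3 and 114 CPM in CD103+ DC1. WT ISG+ DC were 4.84-fold lower than CD103+ DC1 in Bub1b (-2.27 ± 0.42 SE, edgeR adjusted p = 0.00689). The Rag2-/- ISG+ DC overlapped with CD103+ DC1. Bub1, the kinase that recruits checkpoint proteins to kinetochores, had 14.7 and 3.28 CPM in Rag2-/- ISG+ DC, 2.77 and 3.39 CPM in WT ISG+ DC and 28.2 and 23.3 CPM in CD103+ DC1. It did not pass (-1.51 ± 0.89, 1.55 ± 0.90 and -3.06 ± 0.95 in the 3 comparisons, edgeR adjusted p = 0.483, 0.656 and 0.0773). Ttk, which encodes the checkpoint kinase Mps1, was under 0.50 CPM in both WT ISG+ DC libraries and at 9.001 and 4.23 CPM in Rag2-/- ISG+ DC.

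Of the 6 centromere and kinetochore genes, 4 were lower in WT ISG+ DC than in CD103+ DC1, against 3.62% of all genes tested. None passed in the other comparisons. Cenpe, the kinesin that carries chromosomes to the spindle equator, had 155 and 110 CPM in Rag2-/- ISG+ DC, 29.6 and 6.89 CPM in WT ISG+ DC and 235 and 394 CPM in CD103+ DC1. Its 3 groups did not overlap. WT ISG+ DC were 17.2-fold lower than CD103+ DC1 in Cenpe (-4.10 ± 0.61 SE, edgeR adjusted p = 0.00216), and the log2 fold change was -5.51 without WT ISG+ DC replicate 1 and -3.42 without replicate 2. Rag2-/- over WT ISG+ DC gave 2.86 ± 0.58 and did not pass (edgeR adjusted p = 0.0579), nor did Rag2-/- ISG+ DC over CD103+ DC1 (-1.25 ± 0.54, edgeR adjusted p = 0.312). Cenpf, a large coiled-coil protein of the kinetochore, was 11.8-fold lower in WT ISG+ DC than in CD103+ DC1 (-3.56, edgeR adjusted p = 0.00151), or -4.49 without WT ISG+ DC replicate 1. Nuf2 and Spc25, subunits of the Ndc80 complex that binds microtubules, were lower in WT ISG+ DC than in CD103+ DC1 as well (-3.32 ± 0.72 and -3.67 ± 0.91 SE, edgeR adjusted p = 0.0172 and 0.0316). Ndc80 itself, at -2.55, was not called (edgeR adjusted p = 0.0591). The calls of Nuf2 and Spc25 were lost without WT ISG+ DC replicate 2 and without CD103+ DC1 replicate 3. Their values ran from -4.02 to -2.46 and from -4.99 to -2.69, lowest without WT ISG+ DC replicate 1 and highest without CD103+ DC1 replicate 3. Cenpa, the histone variant that marks centromeres, did not have the order of the other genes, at 10.2 and 8.39 CPM in Rag2-/- ISG+ DC, 6.97 and 9.78 CPM in WT ISG+ DC and 8.31 and 5.14 CPM in CD103+ DC1. Its fold changes of 0.46 ± 0.98, 0.15 ± 0.98 and 0.31 ± 0.98 in the 3 comparisons did not pass. Its promoter window holds a CHR element.

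In the chromosomal passenger complex, which corrects faulty attachments with Aurkb, Incenp and Birc5 were both lower in WT ISG+ DC than in CD103+ DC1. Birc5, the subunit survivin, had 35.5 and 42.7 CPM in Rag2-/- ISG+ DC, 17.8 and 13.0 CPM in WT ISG+ DC and 85.6 and 100.2 CPM in CD103+ DC1. Its groups did not overlap, and it was 6.03-fold lower in WT ISG+ DC than in CD103+ DC1 (-2.59 ± 0.42 SE, edgeR adjusted p = 0.00344). The values of -1.25 ± 0.40 and 1.35 ± 0.40 for Rag2-/- ISG+ DC over CD103+ DC1 and over WT ISG+ DC did not pass (edgeR adjusted p = 0.147 and 0.217). Incenp had 90.1 and 76.1 CPM in Rag2-/- ISG+ DC, 53.4 and 54.7 CPM in WT ISG+ DC and 204 and 409 CPM in CD103+ DC1. Incenp was 3.69-fold lower in Rag2-/- ISG+ DC than in CD103+ DC1 (-1.88 ± 0.35 SE, edgeR adjusted p = 0.0147), a call lost without either Rag2-/- ISG+ DC replicate and -1.28 without CD103+ DC1 replicate 3. For WT ISG+ DC over CD103+ DC1 it was lower by 5.67-fold (-2.50 ± 0.36 SE, edgeR adjusted p = 0.00184, and -1.91 without CD103+ DC1 replicate 3), and between the hosts it did not pass (0.62 ± 0.35, edgeR adjusted p = 0.639).

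The 9 kinesin motors were the largest of the 10 groups of roles. Of these, 3 were lower in Rag2-/- ISG+ DC than in CD103+ DC1, against 0.862% of all genes tested. Between hosts, 2 were higher in Rag2-/- than in WT ISG+ DC, against 0.265%. In WT ISG+ DC, 7 were lower than in CD103+ DC1, against 3.62%. Kif23, a motor of the central spindle that bundles microtubules during cytokinesis, had 39.3 and 46.4 CPM in Rag2-/- ISG+ DC, 11.4 and 11.6 CPM in WT ISG+ DC and 147 and 198 CPM in CD103+ DC1. The replicates of each group lay close together and the groups did not overlap. Kif23 was 4.02-fold lower in Rag2-/- ISG+ DC than in CD103+ DC1 (-2.01 ± 0.35 SE, edgeR adjusted p = 0.00931), 3.72-fold higher in Rag2-/- than in WT ISG+ DC (1.90 ± 0.35 SE, edgeR adjusted p = 0.0492) and 14.97-fold lower in WT ISG+ DC than in CD103+ DC1 (-3.90 ± 0.38 SE, edgeR adjusted p = 0.000223). The host call was lost without any single ISG+ DC library, and the call between populations was lost without either Rag2-/- ISG+ DC replicate. Kif20a, which carries the passenger complex to the central spindle, had 39.1 and 46.5 CPM in Rag2-/- ISG+ DC, 4.69 and 3.39 CPM in WT ISG+ DC and 54.7 and 65.7 CPM in CD103+ DC1. Kif20a was 10.5-fold higher in Rag2-/- than in WT ISG+ DC (3.39 ± 0.49 SE, edgeR adjusted p = 0.0189), with the call kept without any single library, and 14.8-fold lower in WT ISG+ DC than in CD103+ DC1 (-3.88 ± 0.50 SE, edgeR adjusted p = 0.000947). Rag2-/- ISG+ DC over CD103+ DC1 was at -0.49 ± 0.44 and did not pass (edgeR adjusted p = 0.691).

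Kif15, a spindle-stabilizing motor that overlaps in function with Kif11, had 47.0 and 43.4 CPM in Rag2-/- ISG+ DC, 12.4 and 12.6 CPM in WT ISG+ DC and 120.0 and 160 CPM in CD103+ DC1. It was 3.09-fold lower in Rag2-/- ISG+ DC than in CD103+ DC1 (-1.63 ± 0.36 SE, edgeR adjusted p = 0.0313), a call lost without either Rag2-/- ISG+ DC replicate and without CD103+ DC1 replicate 3. Kif15 missed the threshold between hosts (1.85 ± 0.36, edgeR adjusted p = 0.0516) and was 11.2-fold lower in WT ISG+ DC than in CD103+ DC1 (edgeR adjusted p = 0.000413). Kif20b, a motor of late cytokinesis, had 30.2 and 29.97 CPM in Rag2-/- ISG+ DC, 20.4 and 14.97 CPM in WT ISG+ DC and 98.01 and 118 CPM in CD103+ DC1. It was 3.59-fold lower in Rag2-/- ISG+ DC than in CD103+ DC1 (-1.84 ± 0.39 SE, edgeR adjusted p = 0.0279), a call lost without either Rag2-/- ISG+ DC replicate, and its host fold change was 0.77 ± 0.39 (edgeR adjusted p = 0.584). Kif11, which separates spindle poles, had 50.5 and 78.5 CPM in Rag2-/- ISG+ DC, 36.2 and 8.40 CPM in WT ISG+ DC and 132 and 169 CPM in CD103+ DC1. Kif11 was 6.76-fold lower in WT ISG+ DC than in CD103+ DC1 (-2.76 ± 0.60 SE, edgeR adjusted p = 0.0168, with -4.17 without WT ISG+ DC replicate 1 and -2.07 without replicate 2). Its other fold changes of -1.23 ± 0.57 over CD103+ DC1 and 1.53 ± 0.58 over WT ISG+ DC did not pass (edgeR adjusted p = 0.345 and 0.363). The depolymerizing motor Kif2c, with 13.1 and 20.6 CPM in Rag2-/- ISG+ DC and 3.57 and 0 CPM in WT ISG+ DC, did not pass, nor did Kif18b, which trims microtubule ends. Kif4 and Kif22, motors that bind chromosome arms, were lower in WT ISG+ DC than in CD103+ DC1 (-2.28 ± 0.59 and -3.47 ± 0.75 SE, edgeR adjusted p = 0.0361 and 0.0169). Both calls were lost without WT ISG+ DC replicate 2, and without replicate 1 Kif4 lost its call and Kif22 was at -4.12.

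Genes of spindle assembly and cytokinesis, mitotic exit and condensin passed for WT ISG+ DC over CD103+ DC1 and in no other comparison. Tpx2, which activates Aurka at the spindle, had 108 and 88.3 CPM in Rag2-/- ISG+ DC and 34.4 and 33.4 CPM in WT ISG+ DC. In CD103+ DC1 it had 139.6 and 201 CPM. It was 5.01-fold lower in WT ISG+ DC than in CD103+ DC1 (edgeR adjusted p = 0.00172). Anln, which encodes anillin of the contractile ring, had 29.0 and 40.03 CPM in Rag2-/- ISG+ DC, 22.2 and 12.1 CPM in WT ISG+ DC and 58.6 and 78.8 CPM in CD103+ DC1. Its groups did not overlap, WT ISG+ DC were 4.005-fold lower than CD103+ DC1 (-2.00 ± 0.48 SE, edgeR adjusted p = 0.0281, lost without WT ISG+ DC replicate 2), and -0.99 ± 0.47 and 1.01 ± 0.47 in Rag2-/- ISG+ DC did not pass (edgeR adjusted p = 0.358 and 0.541). Prc1, which bundles the central spindle, was 7.37-fold lower in WT ISG+ DC than in CD103+ DC1 (-2.88, and -2.21 without CD103+ DC1 replicate 3), and Ect2, the activator of RhoA in the ring, was at -2.66 and did not pass (edgeR adjusted p = 0.0534).

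Of the genes of mitotic exit, Cdc20, the activator of the anaphase-promoting complex, had 9.06 and 6.34 CPM in Rag2-/- ISG+ DC, 4.47 and 0 CPM in WT ISG+ DC and 21.5 and 10.1 CPM in CD103+ DC1. It did not pass (-1.04 ± 1.47, 1.78 ± 1.52 and -2.82 ± 1.57, edgeR adjusted p = 0.836, 0.813 and 0.335). Ube2c, the ubiquitin enzyme of that complex, was 30.1-fold lower in WT ISG+ DC than in CD103+ DC1 (-4.91 ± 0.93 SE, edgeR adjusted p = 0.00805). It had 22.7 and 9.87 CPM in Rag2-/- ISG+ DC, 0.542 and 3.63 CPM in WT ISG+ DC and 39.1 and 85.0 CPM in CD103+ DC1. Its log2 fold change was -4.10 without WT ISG+ DC replicate 1 and -6.83 without replicate 2. Espl1, the separase that cuts cohesin, had 41.9 and 50.6 CPM in Rag2-/- ISG+ DC, 28.8 and 42.8 CPM in WT ISG+ DC and 49.5 and 40.8 CPM in CD103+ DC1. Its 3 groups overlapped, and its fold changes of 0.03 ± 0.42, 0.37 ± 0.42 and -0.34 ± 0.42 did not pass. Ncapg, a condensin subunit, was 17.0-fold lower in WT ISG+ DC than in CD103+ DC1 (-4.08 ± 0.62 SE, edgeR adjusted p = 0.00254, and -3.27 without CD103+ DC1 replicate 3), and Ncaph, another, did not pass (-3.00, edgeR adjusted p = 0.0909). Across all 40 genes, 16 passed in none of the 3 comparisons.

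Some genes passed once a library was left out, and the genes and libraries given here are not all of them. Between hosts, Cenpe passed in 5 of 6 such fits (not without Rag2-/- ISG+ DC replicate 2), and Top2a, Kif11 and Kif15 passed without CD103+ DC1 replicate 3. For Rag2-/- ISG+ DC over CD103+ DC1, Nek2 passed without either WT ISG+ DC replicate and, like Cenpe, without CD103+ DC1 replicate 2. For WT ISG+ DC over CD103+ DC1, Ccnb1 and Cdc20 passed without WT ISG+ DC replicate 1, Aurkb without WT ISG+ DC replicate 2, Bub1 without Rag2-/- ISG+ DC replicate 3 and Plk1 without either Rag2-/- ISG+ DC replicate.

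**Figure D4:**
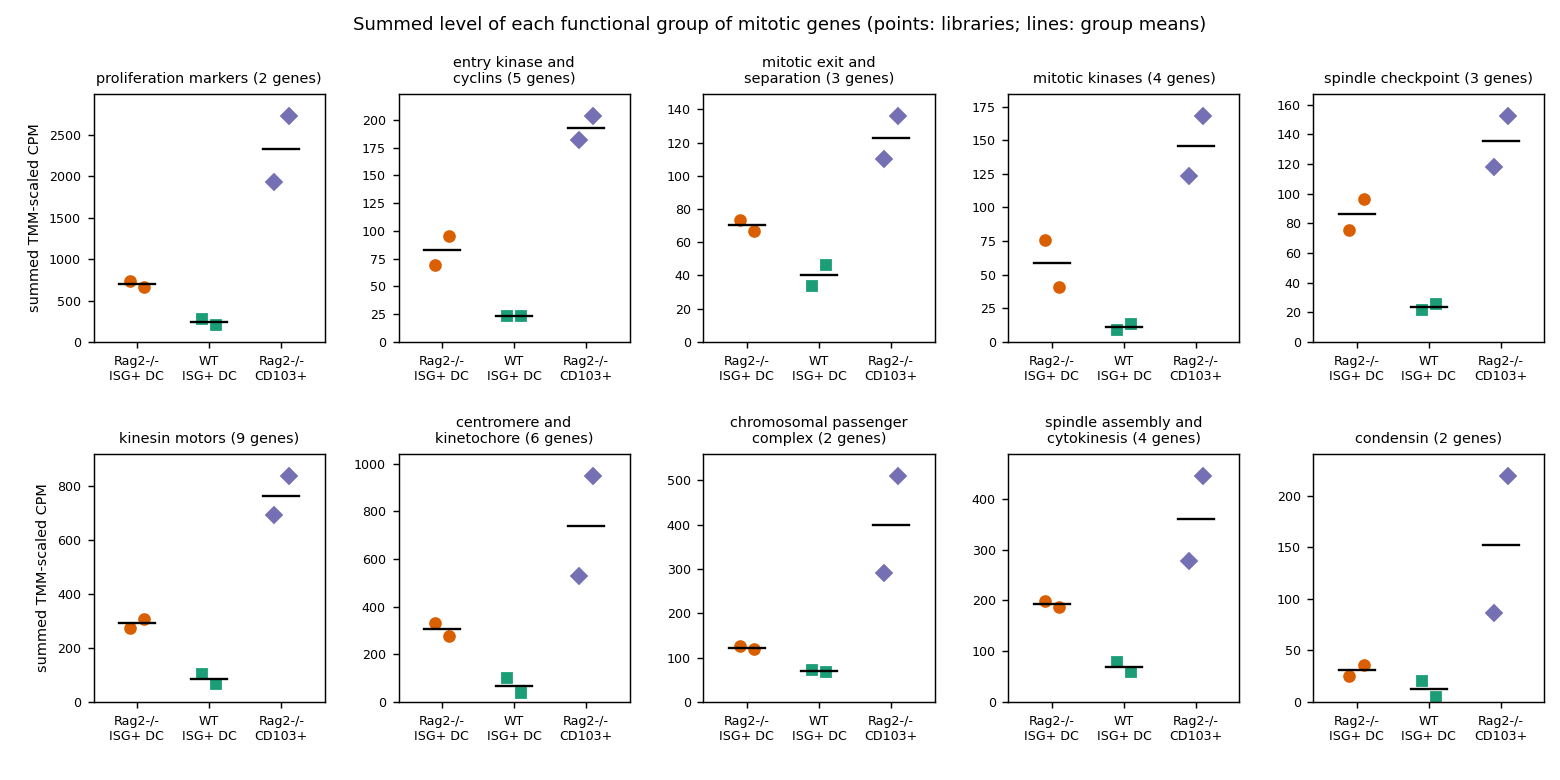
Summed TMM-scaled CPM of each functional group of mitotic genes in each library (points), with lines at the group means, from Rag2-/- ISG+ DC at the left to Rag2-/- CD103+ DC1 at the right. In each of the 10 groups the mean is lowest in WT ISG+ DC and highest in CD103+ DC1, and the libraries overlap in none.

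Other cell cycle genes were read as lists beside the 40. Shares of all genes tested, for the calls in this and the next paragraphs, were as follows. For Rag2-/- ISG+ DC over CD103+ DC1, 0.862% were lower and 2.83% higher. Between hosts, 0.265% were higher in Rag2-/- ISG+ DC and 0.287% lower. For WT ISG+ DC over CD103+ DC1, 3.62% were lower and 5.52% higher. Of 37 other kinetochore and checkpoint genes, 1 was lower in Rag2-/- ISG+ DC than in CD103+ DC1, none was called between hosts and 5 were lower in WT ISG+ DC than in CD103+ DC1, with medians of -0.96, 0.81 and -1.86. That 1 was Casc5, the kinetochore scaffold Knl1, at 34.6 and 23.2 CPM in Rag2-/- ISG+ DC against 96.2 and 119 CPM in CD103+ DC1 (-1.90 ± 0.42 SE, edgeR adjusted p = 0.0314), a call lost without either Rag2-/- ISG+ DC replicate. Cenpk and Ska1, kinetochore genes at 0 in both WT ISG+ DC libraries, were at least 115-fold and 58.4-fold lower there than in CD103+ DC1 (edgeR adjusted p = 0.0157 and 0.0432). Cenpk lost its call without CD103+ DC1 replicate 3 and Ska1 without Rag2-/- ISG+ DC replicate 2 or either WT ISG+ DC replicate. The limit of Cenpk was 31.97-fold without CD103+ DC1 replicate 3 and 199-fold without replicate 2. With WT ISG+ DC replicate 2 as the single WT library the limits were 54.5-fold for Cenpk and 27.6-fold for Ska1. Of 37 other spindle and cytokinesis genes, 1 was lower in Rag2-/- ISG+ DC than in CD103+ DC1, none was called between hosts and 19 were lower in WT ISG+ DC than in CD103+ DC1, with medians of -1.21, 0.99 and -2.18. The first was Tacc3, a spindle microtubule protein (-2.09 ± 0.45 SE, edgeR adjusted p = 0.0299, lost without Rag2-/- ISG+ DC replicate 2, and -2.68 with replicate 3 left out). The cytokinesis protein Cep55 was at 23.4 and 14.95 CPM in Rag2-/- ISG+ DC, 0.715 and 2.20 CPM in WT ISG+ DC and 48.6 and 41.8 CPM in CD103+ DC1, without a host call (edgeR adjusted p = 0.0516). The 37 kinetochore and checkpoint genes gave 0 to 2 lower calls for Rag2-/- ISG+ DC over CD103+ DC1 with a library left out, 0 to 3 higher calls between hosts. For WT ISG+ DC over CD103+ DC1 they gave 3 without WT ISG+ DC replicate 2 and 9 without CD103+ DC1 replicate 2. Spdl1, 1 of the 5 kinetochore and checkpoint genes called there, was not read with a library left out, so these counts may omit it. Among 18 other condensin and cohesin genes, none was called for Rag2-/- ISG+ DC over CD103+ DC1 or over WT ISG+ DC. Of the 18, 7 were lower in WT ISG+ DC than in CD103+ DC1, led by Ncapd2 (-2.74, edgeR adjusted p = 0.00170). Their medians were -0.91, 0.41 and -1.23. Against CD103+ DC1, the Rag2-/- ISG+ DC gave 6 lower calls and the WT ISG+ DC gave 10 without CD103+ DC1 replicate 2. The WT ISG+ DC gave 3 without their replicate 1, and 2 genes were higher between hosts without CD103+ DC1 replicate 3. With a library left out, the 37 spindle and cytokinesis genes gave 1 to 10 lower calls for Rag2-/- ISG+ DC over CD103+ DC1, 0 to 9 higher calls between hosts and 14 to 21 lower calls for WT ISG+ DC over CD103+ DC1, with the highest count each time without CD103+ DC1 replicate 2.

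Of 26 other entry and exit regulators, the histone kinase Gsg2 was the 1 gene called. It was lower in WT ISG+ DC than in CD103+ DC1 (-3.11, edgeR adjusted p = 0.0439), where 3.62% of all genes tested were lower. The medians of the 26 were -0.57, 0.43 and -0.94. Gsg2 was at -2.30 and lost its call without WT ISG+ DC replicate 2 and was at -5.19 without replicate 1, and 5 of the 26 were lower without CD103+ DC1 replicate 2. Of 16 transcription factors of the program, 3 were lower in WT ISG+ DC than in CD103+ DC1, against 3.62% of all genes tested. None passed otherwise, with medians of -0.63, 0.34 and -0.98. Foxm1 had 60.2 and 38.3 CPM in Rag2-/- ISG+ DC, 17.96 and 13.5 CPM in WT ISG+ DC and 136 and 57.6 CPM in CD103+ DC1 (-2.62 for WT ISG+ DC over CD103+ DC1, edgeR adjusted p = 0.00931, and -1.88 without CD103+ DC1 replicate 2). Mybl2, which encodes B-Myb, had 24.6 and 21.5 CPM in Rag2-/- ISG+ DC, 5.27 and 1.198 CPM in WT ISG+ DC and 38.8 and 93.4 CPM in CD103+ DC1 (-4.34, edgeR adjusted p = 0.00618, and -5.77 without WT ISG+ DC replicate 1 and -3.56 without CD103+ DC1 replicate 3). E2f8, a repressor of the cycle, was the third (-2.55, edgeR adjusted p = 0.00568). Without CD103+ DC1 replicate 2, 2 factors were lower in Rag2-/- ISG+ DC than in CD103+ DC1, 3 were higher in Rag2-/- than in WT ISG+ DC and 5 were lower in WT ISG+ DC than in CD103+ DC1.

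Replication genes, whose products act before mitosis, gave most of their calls for WT ISG+ DC over CD103+ DC1. Medians of the 20 genes were -0.82, 0.99 and -1.72 in the 3 comparisons. Of the 20, none was called between populations in Rag2-/- hosts, against 3.69% of all genes tested in either direction. Between hosts, 1 was higher in Rag2-/- than in WT ISG+ DC, against 0.265%. In WT ISG+ DC, 13 were lower than in CD103+ DC1, against 3.62%. These counts depended on single libraries: without CD103+ DC1 replicate 2 they were 3, 5 and 13, and without WT ISG+ DC replicate 2 the last was 6. Mcm6, a subunit of the replicative helicase, had 109.5 and 162 CPM in Rag2-/- ISG+ DC, 44.4 and 38.8 CPM in WT ISG+ DC and 164 and 175 CPM in CD103+ DC1. It was higher in Rag2-/- than in WT ISG+ DC (1.70 ± 0.32 SE, edgeR adjusted p = 0.0492), a call lost whichever ISG+ DC library was left out.

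Of the 17 cyclins, kinases and inhibitors of the G1 phase tested of 19, none was lower in any of the 3 comparisons. In Rag2-/- ISG+ DC, 2 were higher than in CD103+ DC1, against 2.83% of all genes tested. In WT ISG+ DC, 3 were higher than in CD103+ DC1, against 5.52%. Without CD103+ DC1 replicate 2, 2 were lower and 3 higher between hosts and 2 were lower in WT ISG+ DC than in CD103+ DC1. Ccnd2, for cyclin D2, had 799 and 848 CPM in Rag2-/- ISG+ DC, 317 and 239 CPM in WT ISG+ DC and 164 and 92.2 CPM in CD103+ DC1. It was higher in both ISG+ DC groups than in CD103+ DC1 (2.68 ± 0.32 and 1.12 ± 0.30 SE, edgeR adjusted p = 0.00143 and 0.0468), the second call lost without either Rag2-/- ISG+ DC replicate or WT ISG+ DC replicate 1. Cdkn1a, the inhibitor p21, had 103 and 192 CPM in Rag2-/- ISG+ DC, 189 and 196 CPM in WT ISG+ DC and 49.7 and 20.2 CPM in CD103+ DC1 (2.06 ± 0.45 and 2.45 ± 0.46 SE over CD103+ DC1, edgeR adjusted p = 0.0316 and 0.00746). The first call was lost without Rag2-/- ISG+ DC replicate 3, and both values were larger without CD103+ DC1 replicate 2 (2.86 and 3.24). Btg1, an antiproliferative gene, was higher in WT ISG+ DC than in CD103+ DC1 (1.49, edgeR adjusted p = 0.0146). Ccnd1, for cyclin D1, had 594 and 679 CPM in Rag2-/- ISG+ DC, 252 and 120.3 CPM in WT ISG+ DC and 454 and 322 CPM in CD103+ DC1. It missed the threshold between hosts (1.77 ± 0.35, edgeR adjusted p = 0.0534).

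**Figure D5:**
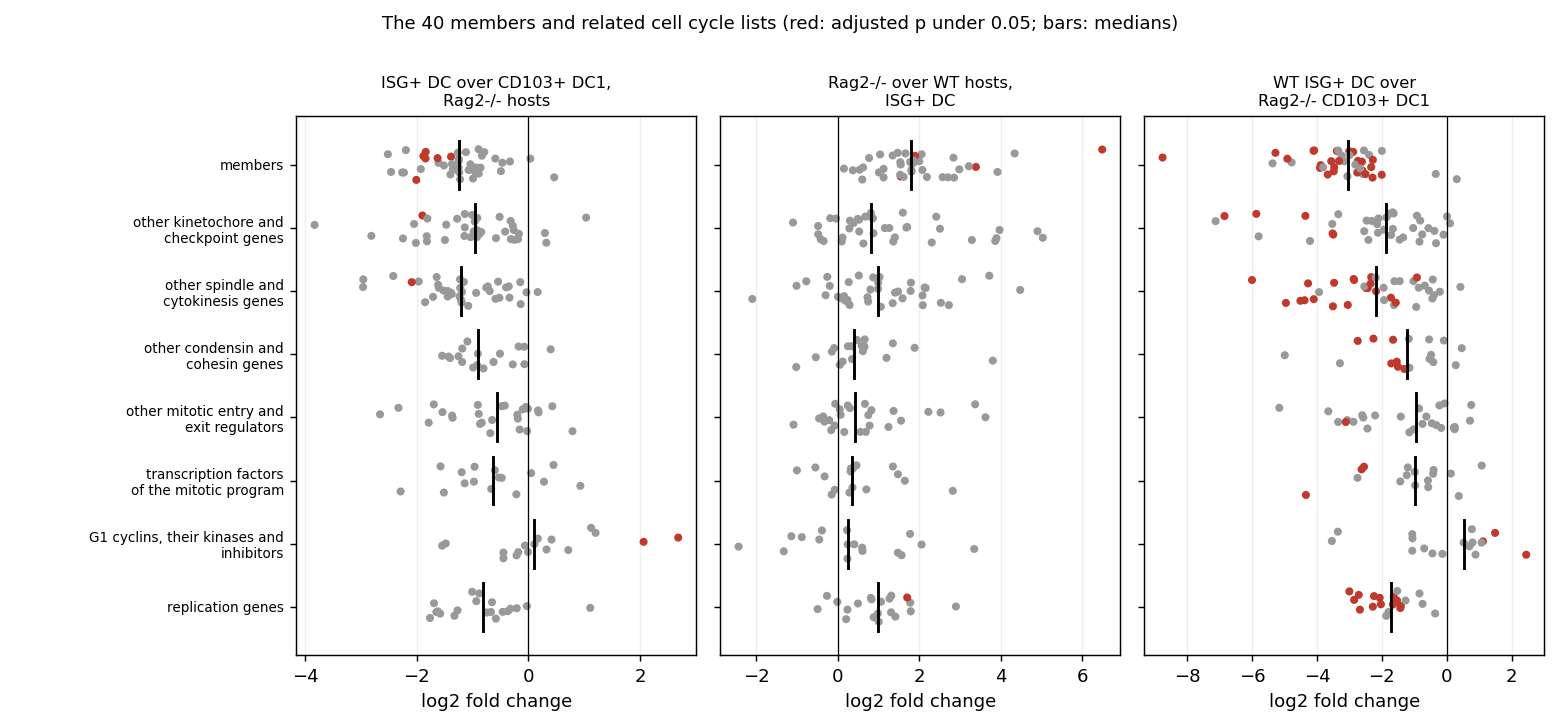
Log2 fold change of each gene in the 40 members and in 7 related cell cycle lists for the 3 comparisons, with red points for an adjusted p under 0.05, grey for the rest and black bars at the medians. The members' medians of -1.25, 1.80 and -3.03 lie farthest from 0 in each panel, and those of the G1 list, 0.11, 0.24 and 0.52, lie nearest to 0.

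Of 5 pan-DC markers, Flt3 and Zbtb46 had the same order of groups as the mitotic sums and the other 3 did not. Flt3, the receptor for the DC growth factor, had 145 and 91.3 CPM in Rag2-/- ISG+ DC, 15.8 and 32.4 CPM in WT ISG+ DC and 490 and 330 CPM in CD103+ DC1. It was lower in Rag2-/- ISG+ DC than in CD103+ DC1 (-1.80, edgeR adjusted p = 0.0321, lost without Rag2-/- ISG+ DC replicate 3) and higher in Rag2-/- than in WT ISG+ DC (2.29, edgeR adjusted p = 0.0411, lost without Rag2-/- ISG+ DC replicate 2 or WT ISG+ DC replicate 1, and 2.91 without WT ISG+ DC replicate 2). Zbtb46, a transcription factor of conventional DC, had 157 and 111 CPM in Rag2-/- ISG+ DC, 32.2 and 52.3 CPM in WT ISG+ DC and 260 and 267 CPM in CD103+ DC1, and was lower in WT ISG+ DC than in CD103+ DC1 (-2.64, edgeR adjusted p = 0.000947). Itgax, which encodes CD11c, had 493 and 526 CPM in Rag2-/- ISG+ DC, 321 and 337 CPM in WT ISG+ DC and 165 and 159 CPM in CD103+ DC1. It was higher in both ISG+ DC groups than in CD103+ DC1 (1.66 and 1.03, edgeR adjusted p = 0.00303 and 0.0204), the second call lost whichever ISG+ DC library was left out. The antigen presentation genes Cd74 and H2-Ab1 did not pass, with means of 10356 and 5549 CPM in Rag2-/- ISG+ DC, 10606 and 5966 CPM in WT ISG+ DC and 6661 and 5271 CPM in CD103+ DC1. The medians of the 5 markers were 0.07 for Rag2-/- ISG+ DC over CD103+ DC1, 0.63 for Rag2-/- over WT ISG+ DC and 0.18 for WT ISG+ DC over CD103+ DC1. The part of a changed mix of cells in the sorted populations was not tested.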

How the data were processed

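The deposited values are the authors' estimated counts for each gene symbol, without normalization, and every value column was matched to 1 of the 6 libraries by its label. Bowtie 1.2.3, RSEM 1.3.1 and the build mm9 are named, per the submitters' processing notes. Gene annotation and strand setting were not given in the sources used here. Overlapping genes and near-identical copies cannot be separated. The labels name a stranded total RNA kit in the protocol and polyA RNA as the molecule, and these were not reconciled.

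After rounding to whole numbers, the counts were fitted with edgeR 4.0.16 under R 4.3.3. The filter filterByExpr left 13223 of 23224 genes, including all 40 members, and TMM factors scaled the libraries. One quasi-likelihood fit over all 6 libraries gave the 3 comparisons, with 3 residual and 7.34 prior degrees of freedom and a biological coefficient of variation of 0.703. P-values are two-sided, were adjusted over all genes tested by the Benjamini-Hochberg method and called at 0.05. They measure only the spread between these libraries. An exact permutation test of 2 libraries against 2 cannot go below 0.333. Each SE was worked back from the test, as the size of the log2 fold change over the square root of its F statistic. For the least folds and the plotted differences, a gene at 0 in a group was set at 3 counts over the group. This limit covers counting error only, and the fit and its p-values used the zeros as they were.

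The members and lists were chosen with earlier results of these data known. Named in full were 12 fixed members, the 6 with the smallest p in each comparison, and up to 3 genes per related list. Other members are named beside them, chosen after their values were seen. Alternatives were other scalings and filters, DESeq2 1.42.0, subsets of libraries and a replicate block. Leaving out each library for the related lists and markers was added after seeing the data. Promoter sequences are from RefSeq (GRCm38.p6) and were matched by symbol.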

Additional observations from a re-analysis of the deposited data

How the results depend on the processing

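Directions of the 18 members named in full held under the alternatives, except for Plk1 between hosts. Plk1 was at -0.55 without Rag2-/- ISG+ DC replicate 2 and at up to 2.87 with another library left out. Directions of some other members also changed with a library left out. Between hosts the lowest values were -0.68 for Aurka, -0.34 for Ncaph and -0.07 for Cenpa. For Rag2-/- ISG+ DC over CD103+ DC1, Spc25 reached 0.02 and Espl1 -0.11. Counts of calls depended on the setting, and the cause was not tested. For Rag2-/- ISG+ DC over CD103+ DC1, 6 lower members became 14 with no filter on low counts and 10 with DESeq2, and 1 to 15 with a library left out. For Rag2-/- over WT ISG+ DC, 4 higher members became 2 with DESeq2 size factors or a filter of at least 1 CPM in at least 2 libraries, 17 with no filter, 15 with DESeq2, 10 with only the 4 libraries compared, and 2 to 15 with a library left out. There the members' median ran from 1.52 to 2.11 with a library left out, and for WT ISG+ DC over CD103+ DC1 from -3.76 to -2.84. Where a group kept 1 library, that library was assumed to vary like the others.

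With the replicate number as a block in the 4 Rag2-/- libraries, 11 members were lower in ISG+ DC than in CD103+ DC1. In these libraries, replicate 2 of ISG+ DC and of CD103+ DC1 did not deviate together (r = -0.00239), so the numbers were not taken to pair them. WT ISG+ DC were not checked in this way. Whether the numbers mark shared experiments was not given. Over all genes, the 488, 73 and 1209 calls of the 3 comparisons became 1087, 555 and 1890 with no filter and 1078, 547 and 2081 with DESeq2. Library totals without scaling factors moved the median of all genes between hosts to 0.11.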

Other observations

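Some mitotic genes differed strongly between replicates of 1 group, and the genes named here were picked after their values were seen. In Rag2-/- ISG+ DC, Plk1 (26.6 and 2.48 CPM), Aurka (17.4 and 1.39 CPM) and Bub1 (14.7 and 3.28 CPM) differed by over 4-fold, all with replicate 2 above replicate 3. In the same libraries Ccnb2 (7.74 and 19.98 CPM), Bub1b (51.9 and 89.0 CPM) and Aurkb (17.6 and 26.1 CPM) were higher in replicate 3, and 17 of the 40 genes were, against 46.9% of all genes tested. In WT ISG+ DC 10 members differed by over 4-fold, of which 3 (Ccna2, Cdc20 and Kif2c) were at 0 in 1 library. None differed so in CD103+ DC1, where the levels were higher. The part of low counts was not tested, and the share of such genes among all genes was not computed. In CD103+ DC1, 27 of the 40 were higher in replicate 3 than in replicate 2, against 44.2% of all genes tested.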
